A study of Mus musculus with 8 samples.

Results

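Regulators of G protein signalling, the Rgs genes, were followed in the myocardium, the heart muscle, of mice labelled NPRA-/- and NPRA+/+. The members were 10 genes given by symbol: Rgs1, Rgs2, Rgs3, Rgs4, Rgs5, Rgs6, Rgs7, Rgs10, Rgs12 and Rgs16. Through the RefSeq transcript that the array design names for each probe, 17 of the 39429 non-control probes belonged to them. Of the 10 genes, 5 had 1 probe, 3 had 2 and 2 had 3. Where a gene had several probes, they are numbered here from the brightest. All 17 probes were among the 35329 tested, which had to be well above background on at least 3 of the 8 arrays, and 16 of the 17 were so on all 8.

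The study set the hearts of male mice without the natriuretic peptide receptor NPRA, encoded by Npr1, against those of wild-type mice. The groups were NPRA-/- (3 arrays) and NPRA+/+ (5 arrays), all from untreated animals. The model is a conditional knockout built on a floxed NPRA allele, and the title of the series places the knockout in the heart. The Cre driver, the cells it acts in, the strain, the age and whether the NPRA+/+ mice carried the floxed allele or Cre are not stated in these sources. Each sample was hybridised to 1 Agilent 1-colour array, and the series text speaks of m6A although the array measures expression, and signals are read here as transcript levels.

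A heterotrimeric G protein signals while its alpha subunit holds GTP, and RGS proteins end that signal by speeding up GTP hydrolysis. They therefore set how strongly and how long a heart cell answers to angiotensin, endothelin, adrenergic and muscarinic receptors. The R4 family, here Rgs1, Rgs2, Rgs3, Rgs4, Rgs5 and Rgs16, acts on the Gq and Gi classes, with Rgs2 preferring Gq. The R7 family, here Rgs6 and Rgs7, works bound to the beta subunit Gnb5, and the R12 family, here Rgs10 and Rgs12, acts mainly on Gi. In mice, Rgs2 and Rgs4 have been tied to the restraint that NPRA and its messenger cyclic GMP place on Gq signals for heart growth, Rgs2 as a substrate of the cyclic GMP kinase.

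Between 79.5% and 92.6% of all probes were well above background per array. Levels below are log2 signals relative to the 75th percentile of the array, so 0 is that percentile and 1 unit is a doubling. The level of one probe is not comparable with that of another. The 8 arrays lay on 6 slides scanned on 4 days, where arrays with the same scan time are counted as 1 slide. Slides are thus inferred from scan times here. Both genotypes shared 0 slides and 1 scan day, day 1, which held replicates 2 and 3 of each. NPRA-/- replicate 1 (scan day 3) and NPRA+/+ replicate 1 (scan day 4) stood apart from the other arrays on the first principal component, which held 47.3% of the variance. The Npr1 probe cleared the background flag on 2 of the 3 NPRA-/- arrays and 4 of the 5 NPRA+/+ arrays and had a fitted log2 difference, NPRA-/- minus NPRA+/+, of 0.03 ± 0.40 (SE; limma, adjusted p = 0.978). It does not check the labels, since where it lies relative to the deletion is not stated. The median fitted difference of all tested probes was itself 0.21, and by signal it was 0.63 for the dimmest of 5 equal-sized sets of probes and 0.05 for the brightest, so each member is also set against probes of like signal.

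No member probe (0 of 17) passed limma's threshold of an adjusted p under 0.05, and the background share over all probes tested was 0.348% (123 probes). Without NPRA+/+ replicate 1 that count was 3901 higher and 187 lower, and 1 member probe, that of Rgs16, passed. At an unadjusted p under 0.05, 3 of 17 probes were higher on the NPRA-/- arrays (those of Rgs1 and Rgs16 and the dimmest of Rgs12), against 18.3% of all probes, and 0 were lower, against 1.36% (19.7% in either direction). The same 3 probes (17.6%) had all NPRA-/- arrays above all NPRA+/+ arrays, against 14.1% of all probes, and 0 of 17 had them below, against 1.29%. These shares lie near the background. Fitted differences were above 0 for 12 of the 17 probes, against 26485 of all 35329, a slightly larger share, and above the median of all probes for 8. With the probe of highest mean level for each gene, the members' median fitted difference was 0.25, against 0.16 over all genes, and it was -0.04 with scaling to the array median, where all genes were at -0.13. The 95% intervals of the fitted differences take the arrays as independent. For 14 of the 17 probes the interval included 0. For 16 it included the median of probes of like signal, the exception being the dimmer probe of Rgs2, which lay below it.

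**Figure D1:**
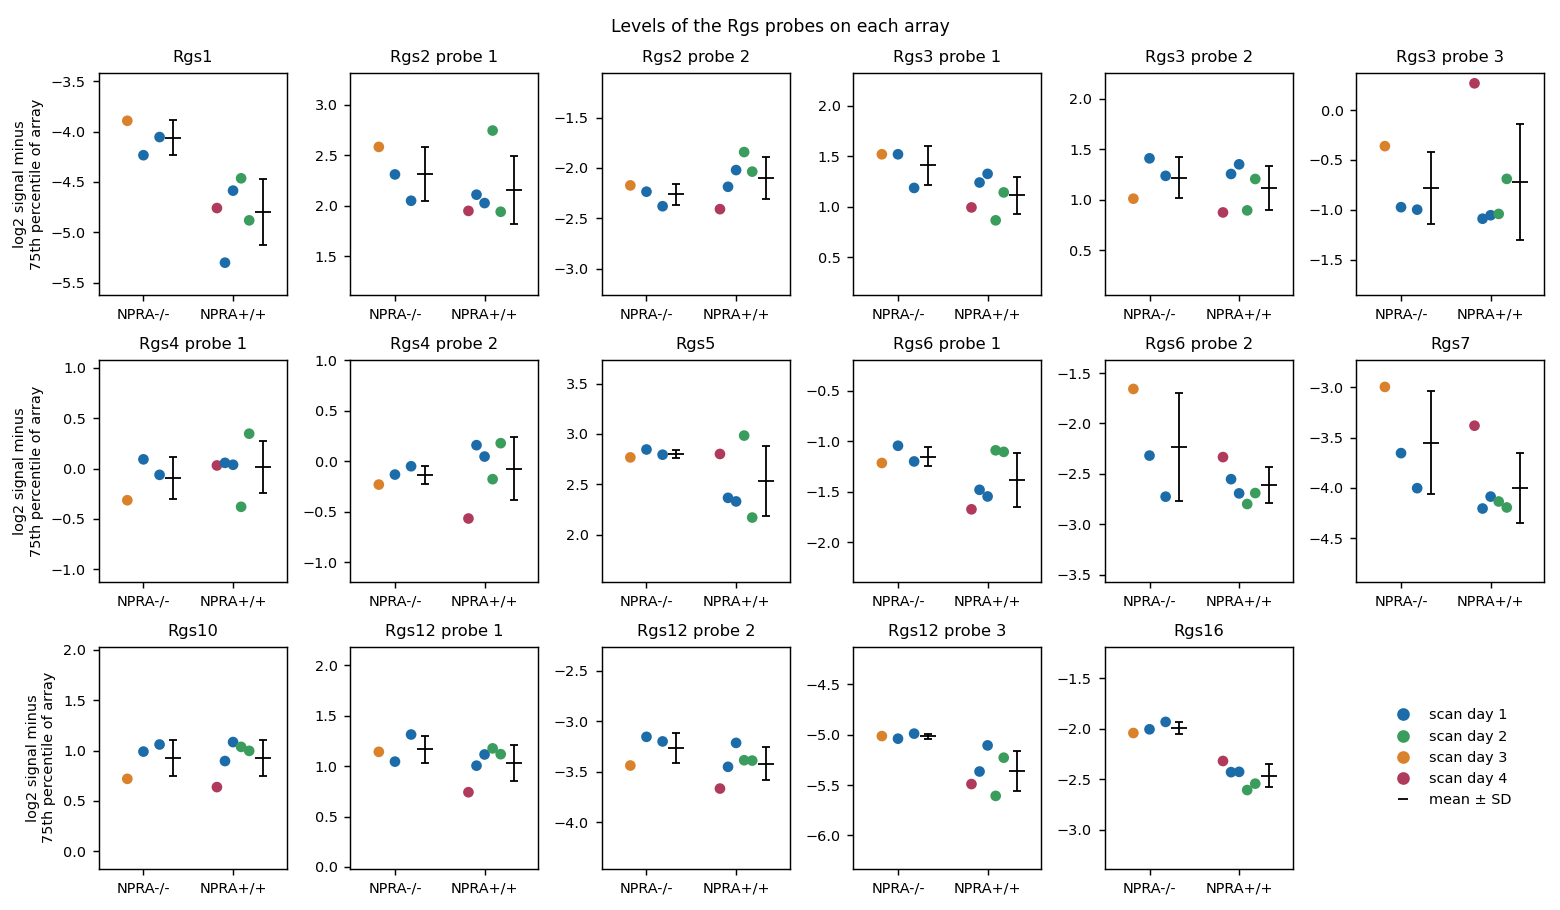
Log2 signal relative to the 75th percentile of the array (y axis, with its own range per panel) for each of the 17 Rgs probes, with the NPRA-/- arrays on the left and the NPRA+/+ arrays on the right. Points are arrays coloured by scan day and the bars are means ± SD (n = 3 and n = 5); the genotypes separate without overlap for Rgs1, Rgs16 and probe 3 of Rgs12 alone.

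Rgs2, the Gq-selective member, had 2 probes whose fitted differences lay on opposite sides of 0. The brighter one (A_55_P2109857) was at 2.58, 2.31 and 2.05 on the NPRA-/- arrays, against 1.95, 2.11, 2.03, 2.74 and 1.94 on the NPRA+/+ arrays. NPRA+/+ replicate 4 was above every other array, so the genotypes overlapped. The fitted difference was 0.16 ± 0.22 (SE; limma, adjusted p = 0.742), with a 95% interval from -0.35 to 0.67, or 0.784-fold to 1.59-fold. The dimmer probe (A_52_P378968) was at -2.17, -2.24 and -2.38, against -2.41, -2.19, -2.02, -1.84 and -2.04. Here NPRA+/+ replicate 1 was the lowest array and 3 NPRA+/+ arrays lay above all NPRA-/- arrays. Its fitted difference was -0.16 ± 0.15 (limma, adjusted p = 0.610; 95% interval from -0.52 to 0.19), where probes of like signal had a median of 0.22. Neither sign was stable: the brighter probe was at -0.13 with scaling to the median, and the dimmer one at 0.07 with normexp background correction.

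Rgs4, which acts on Gi and Gq and is abundant in the mouse heart's conduction tissue, had near-equal levels in both genotypes by both of its probes. Probe 1 (A_55_P2026734) was at -0.31, 0.09 and -0.06 on the NPRA-/- arrays, against 0.03, 0.06, 0.04, -0.38 and 0.35 on the NPRA+/+ arrays. Probe 2 (A_55_P2026738) was at -0.23, -0.13 and -0.05, against -0.57, 0.16, 0.05, -0.18 and 0.18. In both, the NPRA-/- arrays lay inside the span of the NPRA+/+ arrays. The fitted differences were -0.11 ± 0.18 and -0.07 ± 0.19 (SE; limma, adjusted p = 0.785 and 0.890). The 95% intervals ran from -0.53 to 0.31 and from -0.51 to 0.38, or down to 0.691-fold and 0.704-fold, and hold for this scaling only. Relative to the median of all probes the differences were -0.32 and -0.27, and probes of like signal had a median of 0.05. These were the only member probes whose fitted difference was negative under all 21 alternatives. The lowest values were -0.40 ± 0.22 (SE) for probe 1 and -0.36 ± 0.25 for probe 2, both with scaling to the median. A larger loss than the intervals above allow is thus not excluded.

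Rgs5, a marker of pericytes and of arterial smooth muscle, was even across the NPRA-/- arrays and uneven across the NPRA+/+ arrays. Its probe (A_52_P136782) was at 2.77, 2.85 and 2.79, a mean of 2.80 ± 0.04 (SD, n = 3), against 2.80, 2.37, 2.33, 2.98 and 2.17, a mean of 2.53 ± 0.34 (SD, n = 5). NPRA+/+ replicate 1 lay among the NPRA-/- arrays, replicate 4 above them, and the other 3 were below them. The fitted difference was 0.27 ± 0.20 (SE; limma, adjusted p = 0.508), and -0.02 with scaling to the median. Within scan day 1, with 2 arrays each, it was 0.47 ± 0.09 (limma, adjusted p = 0.0400), where 15.6% of all probes were called higher and where slide and genotype cannot be told apart. With scan day as a block, which draws on the same arrays for the difference, the adjusted p was 0.337. The summed level of 7 pericyte markers ran from 4.08 to 4.46 on the NPRA-/- arrays and from 4.04 to 4.55 on the NPRA+/+ arrays. On scan day 1 that sum was 4.46 and 4.40, against 4.55 and 4.54. The summed level of 5 smooth muscle markers ran from 3.54 to 5.26 on the NPRA-/- arrays and from 3.97 to 4.53 on the NPRA+/+ arrays. On scan day 1 that sum was 5.26 and 4.74, against 4.51 and 4.04. Acta2 carried most of it, with a scan day 1 difference of 0.97. The difference was 0.56 for the dim Myh11, 0.08 for Cnn1, 0.02 for Tagln and -0.10 for Myocd. The part of pericytes or of smooth muscle in the Rgs5 values was not tested. In whole tissue, fewer cells of a type and less RNA per cell cannot be told apart.

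Rgs16, an inducible member that acts on Gi and Gq, had the smallest p of the 17 probes. The probe (A_51_P249286) was at -2.04, -2.0 and -1.93 on the NPRA-/- arrays, against -2.32, -2.43, -2.43, -2.61 and -2.54 on the NPRA+/+ arrays. All 3 NPRA-/- arrays lay above all 5 NPRA+/+ arrays. With means of -1.99 ± 0.06 (SD, n = 3) and -2.47 ± 0.11 (SD, n = 5), there was a fitted difference of 0.47 ± 0.12 (SE) or 1.39-fold with a 95% interval from 1.15-fold to 1.68-fold. The limma adjusted p was 0.0960, so the difference did not pass. Relative to the median of all probes it was 0.26, and relative to probes of like signal 0.25. In the authors' deposited log2 table the order held, with 7.64, 7.76 and 7.83 against 7.45, 7.52, 7.58, 7.39 and 7.51, and a fitted difference of 0.25 (limma, adjusted p = 0.632). The probe passed in 3 of the 21 alternatives. These were without NPRA+/+ replicate 1 (0.51 ± 0.11, limma adjusted p = 0.0330, with 11.0% of all probes called higher), without replicate 1 of either genotype (0.53 ± 0.10, adjusted p = 0.0331, with 11.2%) and within scan day 1 (0.46 ± 0.09, adjusted p = 0.0424, with 15.6%). On scan day 1 slide and genotype cannot be told apart. The limma adjusted p was 0.0742 with scan day as a block and 0.456 with slide as a random block. Leaving out 1 NPRA-/- array, it ran from 0.13 to 0.286.

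Rgs1, which acts on Gi in lymphocytes and other leukocytes, had the largest fitted difference of the 17. It was dim, at -3.89, -4.23 and -4.05 on the NPRA-/- arrays (A_51_P260683), against -4.76, -5.30, -4.59, -4.46 and -4.88 on the NPRA+/+ arrays, though well above background on all 8. The genotypes did not overlap, and NPRA+/+ replicate 2 was lowest. The means of -4.06 ± 0.17 (SD, n = 3) and -4.80 ± 0.32 (SD, n = 5) gave 0.74 ± 0.20 (SE; limma, adjusted p = 0.111; 95% interval from 0.27 to 1.21). That interval takes the arrays as independent. With slide as a random block the fitted difference was 0.74 ± 0.47 (SE; limma, adjusted p = 0.625). Probes of like signal had a median of 0.40, and 22.3% of them were higher on NPRA-/- arrays without overlap, which leaves 0.34 for Rgs1. In the authors' deposited table the groups did overlap, with 5.67, 5.42 and 5.62 against 5.04, 4.84, 5.50, 5.67 and 5.33, and the fitted difference was 0.29 (limma, adjusted p = 0.756). Rgs1 passed under none (0) of the 21 alternatives, the smallest adjusted p being 0.0674 without NPRA+/+ replicate 1.

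Leukocyte markers stood beside Rgs1 as follows. Of 7 measured, 3 had an unadjusted p under 0.05 and were higher (Ptprc at 0.44 ± 0.17, Cd79a at 0.43 ± 0.13 and S100a8 at 1.05 ± 0.26), and 0 passed limma's adjusted threshold. Over all genes with 1 probe each, 16.2% were higher at that unadjusted p and 1.24% lower. With quantile normalization Cd79a was at -0.01 and the other 2 stayed above 0. Their summed level ran from 3.67 to 4.40 on the NPRA-/- arrays and from 3.53 to 4.36 on the NPRA+/+ arrays, and replicate 1 of each genotype had the high value, where Itgam (3.22 and 3.63) and Cd3e (-1.15 and -1.31) were at their highest. Mesothelial markers were the one marker list of 8 whose summed level separated the genotypes, at 0.18, 0.16 and 0.71 against -0.70, -0.44, -0.11, -0.58 and -0.36. Among single probes, 14.1% of all were higher without overlap, and a like share for summed levels was not computed. Of the 5 mesothelial markers 2, Msln and Wt1, cleared the background flag on every array. Wt1, the brightest, overlapped between the genotypes (0.23 ± 0.18, SE; limma, adjusted p = 0.523). Only 1, Msln, was called higher (2.48, limma, adjusted p = 0.0498). Upk3b, Lrrn4 and Krt19 separated, but cleared the flag on 3 NPRA-/- arrays and on 1, 2 and 2 NPRA+/+ arrays. These markers thus passed the filter through NPRA-/- alone. The part of leukocytes or of mesothelium in the Rgs1 and Rgs16 values was not tested.

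**Figure D2:**
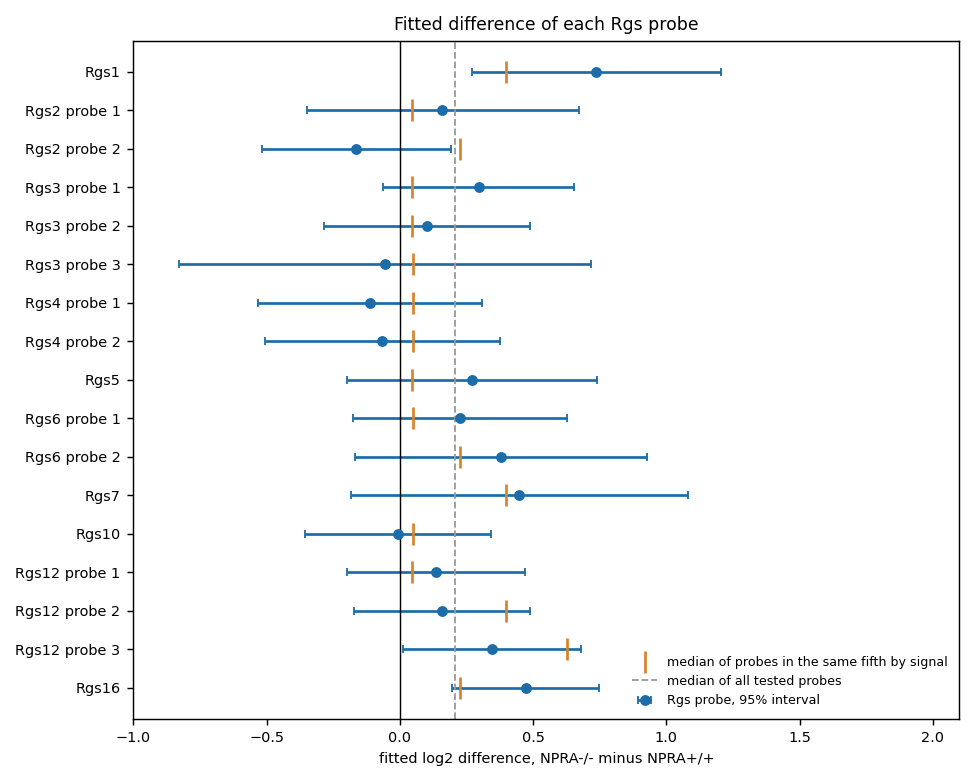
Fitted log2 difference, NPRA-/- minus NPRA+/+ (x axis), of each Rgs probe with its 95% interval, the median of all tested probes (dashed line) and the median of the probes of like signal (tick). The intervals take the arrays as independent. Those of Rgs1, Rgs16 and probe 3 of Rgs12 exclude 0, and all 3 hold the median of probes of like signal (0.40, 0.22 and 0.63). With slide as a random block these 3 fitted differences were 0.74 ± 0.47, 0.47 ± 0.17 and 0.37 ± 0.24 (SE).

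Rgs3, a Gq and Gi regulator made in several isoforms, was read by 3 probes. Probe 1 (A_55_P2027102) was at 1.52, 1.52 and 1.19 on the NPRA-/- arrays, against 0.99, 1.24, 1.33, 0.87 and 1.14 on the NPRA+/+ arrays, a fitted difference of 0.30 ± 0.16 (SE; limma, adjusted p = 0.340). Of the NPRA-/- arrays, 2 of 3 were above all NPRA+/+ arrays. It was 0.07 within scan day 1 and 0.006 with scaling to the median. Probe 2 (A_55_P2027117), assigned to another transcript, had 0.10 ± 0.17 (adjusted p = 0.788). Probe 3 (A_55_P2027107), of the same transcript as probe 1, behaved differently across arrays. It was at -0.36, -0.97 and -1.0, against 0.27, -1.09, -1.05, -1.04 and -0.69, so that replicate 1 of each genotype stood above the other 6 arrays and the genotypes overlapped. Its fitted difference was -0.06 ± 0.34 (adjusted p = 0.949), with the widest interval of the 17 probes, from -0.83 to 0.72.

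Among the R7 members, Rgs6, which in mice dampens the muscarinic slowing of the heart rate, had probe 1 (A_52_P325237) at -1.21, -1.04 and -1.20 on the NPRA-/- arrays, against -1.67, -1.48, -1.55, -1.09 and -1.10 on the NPRA+/+ arrays. NPRA+/+ replicates 4 and 5, both scanned on day 2, reached the NPRA-/- arrays and the other 3 lay below them. The fitted difference was 0.23 ± 0.17 (SE; limma, adjusted p = 0.520), and it was 0.39 within scan day 1, 0.12 with quantile normalization and -0.06 with scaling to the median. Probe 2 (A_55_P2161140) ran from -2.73 to -1.66 in NPRA-/- and from -2.80 to -2.33 in NPRA+/+, with 0.38 ± 0.24 (adjusted p = 0.423). NPRA-/- replicate 1 was the highest array, and without it the fitted difference was 0.09.

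Rgs7, the other R7 member, is best known from neurons. It was dim, at -3.00, -3.65 and -4.00 on the NPRA-/- arrays (A_55_P2089198), against -3.38, -4.20, -4.09, -4.13 and -4.19 on the NPRA+/+ arrays. Replicate 1 of each genotype was again above the other 6 arrays. The fitted difference was 0.45 ± 0.28 (SE; limma, adjusted p = 0.413), close to the median of 0.40 for probes of like signal, and 0.17 without NPRA-/- replicate 1. The summed level of 5 neuron markers was 2.67 and 3.18 on replicate 1 of NPRA-/- and NPRA+/+, and between 1.78 and 2.21 on the other 6 arrays. Snap25 carried that sum, at 2.38 and 2.91 on those 2 arrays and from 0.57 to 1.36 on the others, while Stmn2 (-0.88 and -0.97) and Tubb3 (-3.14 and -3.20) were at their lowest there. Elavl4 was at -0.79 ± 0.24 (SE; limma, adjusted p = 0.132) and Syt1 at 1.87 ± 0.48 (adjusted p = 0.0992), both without overlap between the genotypes. Over all probes, 14.1% were higher and 1.29% lower without overlap. Syt1 was dim and well above background on 3 NPRA-/- arrays and 0 NPRA+/+ arrays, so it passed the filter through NPRA-/- alone. The part of neurons in the Rgs7 values was not tested.

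Of the R12 members, Rgs10, a small RGS protein prominent in leukocytes, was at 0.72, 0.99 and 1.06 on the NPRA-/- arrays (A_51_P218774), against 0.64, 0.90, 1.08, 1.04 and 1.00 on the NPRA+/+ arrays. Here replicate 1 of each genotype lay below the other 6 arrays. The fitted difference was -0.01 ± 0.15 (SE; limma, adjusted p = 0.987), with an interval from 0.781-fold to 1.27-fold. Rgs12, a large scaffold with an RGS domain, had its brightest probe (A_55_P2002122) at 1.17 ± 0.14 (SD, n = 3) in NPRA-/- and 1.03 ± 0.17 (SD, n = 5) in NPRA+/+, a fitted difference of 0.14 ± 0.14 (adjusted p = 0.657). Probe 2 (A_55_P2078365) had 0.16 ± 0.14 (adjusted p = 0.596).

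Probe 3 of Rgs12 (A_55_P2002129) was the only member probe in the dimmest signal group and the only one not well above background on an array, NPRA+/+ replicate 1. It was at -5.01, -5.04 and -4.99 on the NPRA-/- arrays, against -5.49, -5.37, -5.11, -5.61 and -5.23 on the NPRA+/+ arrays, with no overlap. The fitted difference was 0.35 ± 0.15 (SE; limma, adjusted p = 0.242), below the median of 0.63 for its signal group, in which 24.9% of probes were higher without overlap. With quantile normalization it was -0.22 and in the authors' deposited table -0.21, so this separation depended on the scaling.

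The arrays of scan days 3 and 4, 1 each, lay on the same side of all others for several members. Replicate 1 of both genotypes lay above the other 6 arrays for Rgs7 and probe 3 of Rgs3, and below them for Rgs10 and probe 2 of Rgs4. That made 2 of 17 probes each way, where 20.2% of all probes lay above and 17.4% below. Each of these days held 1 genotype, on a slide of its own, so day, slide, sample and genotype cannot be told apart on them.

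**Figure D3:**
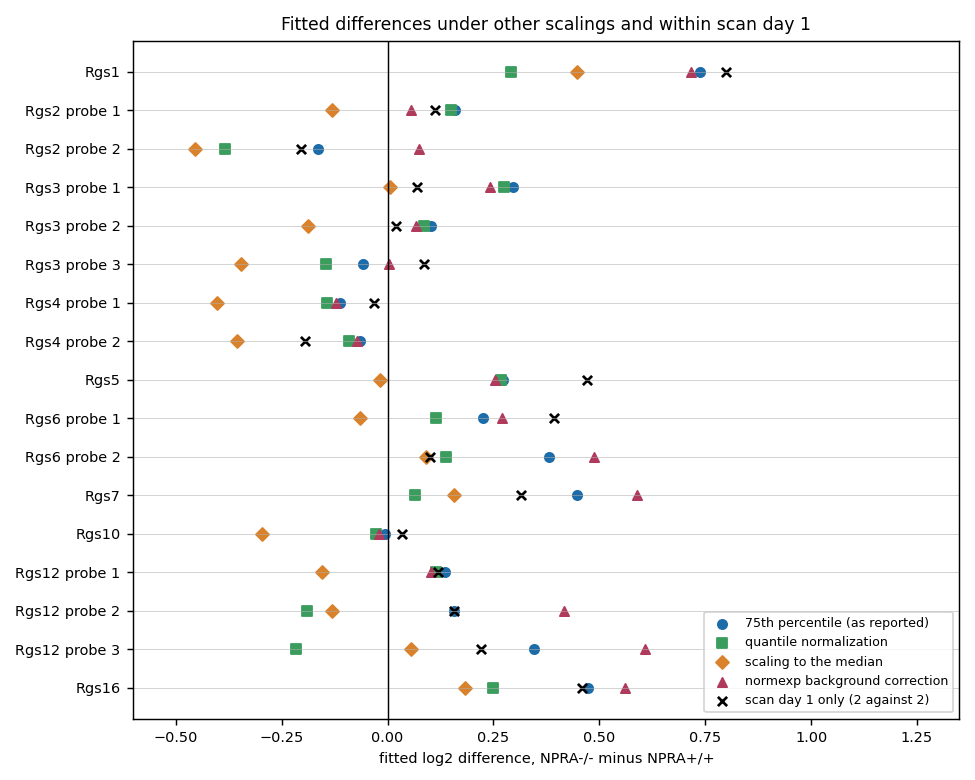
Fitted log2 difference, NPRA-/- minus NPRA+/+ (x axis), of each Rgs probe with the reported scaling, with 3 other scalings or background corrections, and within scan day 1 alone. Rgs1, Rgs16, Rgs7, probe 1 of Rgs3 and probe 2 of Rgs6 stay above 0 in all 5, probes 1 and 2 of Rgs4 stay below 0, and the others, the dim probes of Rgs12 among them, change sign.

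On chromosome 1 lie 6 of the 10 genes (Rgs1, Rgs2, Rgs4, Rgs5, Rgs7 and Rgs16; RefSeq table of GRCm38.p6, used for names and order). Rgs4 and Rgs5 are direct neighbours there among protein-coding genes, and the Rgs5 probe and probe 1 of Rgs4 had different profiles over the arrays. On NPRA+/+ replicate 4 Rgs5 was at its highest (2.98) and probe 1 of Rgs4 at its lowest (-0.38), and on NPRA+/+ replicate 5 Rgs5 was at its lowest (2.17) and probe 1 of Rgs4 at its highest (0.35). Probe 2 of Rgs4 was at -0.18 on replicate 4 and had its lowest level (-0.57) on replicate 1, and it was also at its highest (0.18) on replicate 5.

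Other genes with profiles like Rgs2, Rgs4 and Rgs5 were named by the root mean square difference over the 8 arrays, after subtracting each probe's own mean, among 15515 genes well above background on all arrays. The closest to Rgs2 were Fign, Rgs17 and Plvap (0.111, 0.112 and 0.117), against a spread of 0.28 for Rgs2 itself. Of these, Rgs17 is another RGS gene and Plvap an endothelial gene. Extl1, Snai2 and Ppil6 were closest to Rgs4 (0.0773, 0.0839 and 0.0920, against 0.22). Ogg1, Ip6k3 and Pttg1ip were closest to Rgs5 (0.0727, 0.0787 and 0.0914, against 0.28). The fitted differences of the 9 genes ran from -0.14 ± 0.16 for Extl1 to 0.23 ± 0.23 (SE) for Rgs17, and that of Ip6k3 was as high.

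The rest of the G protein cycle was described from 5 lists with 1 probe per gene, none of whose members (0) passed limma's adjusted threshold in either direction, against 0.32% of all genes with 1 probe each. Of 11 measured members of the other RGS genes and their binding partners, 0 had an unadjusted p under 0.05, and Rgs11, the brightest, had 0.11 ± 0.43 (SE). Gnb5, the partner of Rgs6 and Rgs7, was at 0.10 ± 0.25, and Rgs7bp, their membrane anchor, at 0.32 ± 0.17. The 13 G alpha subunits include the Gq and Gi classes, on which the Rgs members act. Of the 13, 3 were higher at an unadjusted p under 0.05 and 0 lower, against 16.2% and 1.24% of all genes. These were Gnal, the olfactory Gs-type subunit, at 0.72 ± 0.21 (limma, adjusted p = 0.128), Gnaz at 0.83 ± 0.31 and Gnai3, an inhibitory subunit, at 0.30 ± 0.12. Gnaq, the target of Rgs2 in the hypertrophic pathway, was at 0.79 ± 0.15 (SD, n = 3) in NPRA-/- and 0.77 ± 0.08 (SD, n = 5) in NPRA+/+, a fitted difference of 0.02 ± 0.12. That name was chosen after its values were seen.

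Of 13 beta and gamma subunits 1 was higher at an unadjusted p under 0.05, Gnb3 at 0.37 ± 0.13, and of 7 receptor kinases and arrestins 1, Grk4 at 0.43 ± 0.15 (SE; limma, adjusted p = 0.178 and 0.179). None (0) of the 11 effectors and modulators was. These 3 counts lie at or below the 16.2% of all genes. The brightest effector, Kcnj5, a subunit of the muscarinic potassium channel, had 0.02 ± 0.19 with NPRA+/+ replicate 5 missing from the fit. The list medians were 0.23 for the other RGS genes, 0.30 for alpha subunits, 0.14 for beta and gamma subunits, 0.10 for kinases and arrestins and 0.03 for effectors, against 0.16 over all genes, whose median was 0 with quantile normalization. There the list medians lay between -0.06 and 0.03, and that of the Rgs members at 0.13. Prkg1, the cyclic GMP kinase that phosphorylates Rgs2, was at 0.02 ± 0.18.

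**Figure D4:**
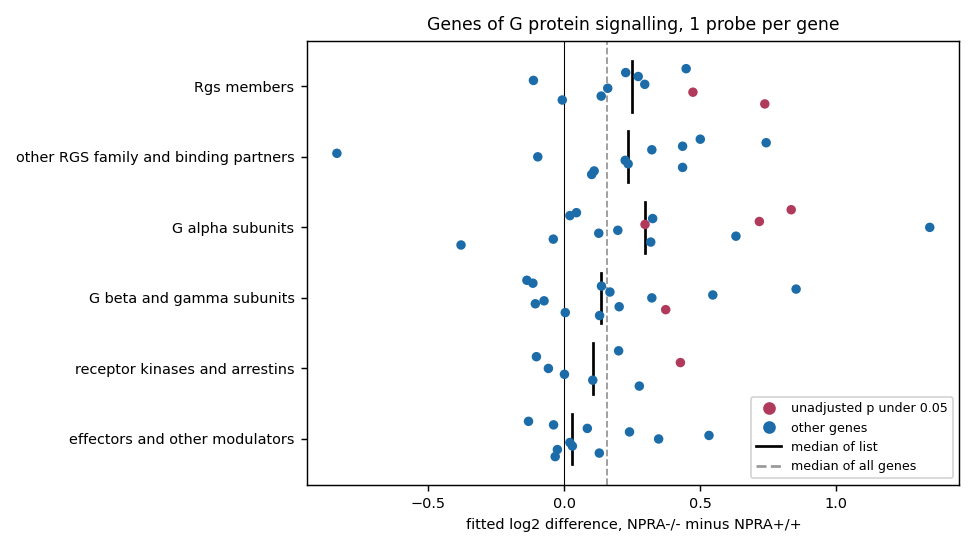
Fitted log2 difference, NPRA-/- minus NPRA+/+ (x axis), of the measured genes of 6 lists of G protein signalling, 1 probe per gene, with the list median (black bar) and the median of all genes (dashed line). Red points have an unadjusted p under 0.05 in limma, and none of the points passed the adjusted threshold.

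All 8 cardiomyocyte markers were well above background on all arrays. So were 29326 of all 39429 probes, and the flag thus says little about the tissue. The summed level of the cardiomyocyte markers ran from 9.24 to 10.64 in NPRA-/- and from 8.37 to 10.32 in NPRA+/+, with replicate 1 of each genotype highest. On the remaining arrays it was 9.28 and 9.24 in NPRA-/-, against 9.08, 8.96, 8.77 and 8.37 in NPRA+/+. All 7 pericyte, 5 smooth muscle, 6 endothelial and 7 leukocyte markers measured were also well above background on all arrays. Of 5 markers of the sinoatrial node and conduction tissue, where Rgs4 and Rgs6 act, 2 were so on all arrays, and Hcn4, the pacemaker channel gene, was well above background on none (0 of 8).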

How the data were processed

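Total RNA was labelled with Cy3 and hybridised to 1 array per sample. The deposited scanner files give each spot's intensity on a linear scale, read with Agilent Feature Extraction 11.0.1.1 (submitters' processing notes), background-subtracted within the array and not scaled between arrays. Other deposited columns are flags, scored 0 or 1. The authors' deposited table holds log2 values, with scale and normalization not given in the sources used here. Each of its columns had a median of 7.04 and had a rank correlation of at least 0.999 with its array.

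Control spots were left out, outlier spots set to missing and the log2 spots of a probe averaged. No spot was saturated (0). Each array's 75th percentile was subtracted. Probes were named through RefSeq accessions (27234 of 39429 with 1 symbol). limma 3.58.1 in R 4.3.3 compared the genotypes over 35329 probes (lmFit, eBayes, two-sided tests, adjusted over all of them by Benjamini-Hochberg, threshold 0.05), checked on simulated data. Precision is limited by the number of arrays. The labels do not link samples to animals, and p-values thus reflect only how these samples varied, which may be technical.

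The members, lists and alternatives were chosen with earlier results of these data known. Every member probe found through a RefSeq accession is described, and the 12195 probes without a symbol were not searched by gene name. In the 5 lists of G protein signalling, genes with an unadjusted p under 0.05 (up to 4), or otherwise the brightest, are named. Of the marker lists only some members are named, and 3 genes per similar profile.

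The replicate numbers of the descriptions pair the samples by the rule used (deviations of equally numbered samples correlated by 0.63, 0.28 and 0.36, each over 0.1). Unequally numbered samples passed it too (0.26 for NPRA-/- replicate 2 with NPRA+/+ replicate 3), and the source names number the NPRA+/+ arrays otherwise, so both numberings were tried as a block. Alternatives were other scalings, normexp on the median spot signal with an offset of 50, the deposited table, filters, blocks, a variance trend, scan day 1 alone and leaving out arrays.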

Additional observations from a re-analysis of the deposited data

Results flagged for a closer look

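Within the 5 NPRA+/+ arrays, 2 of the 17 member probes had 1 array far from the rest, by a gap that chance gives in about 1 of 20 groups. The share of all probes with such a gap is not given here, so the count is a description only. The brighter probe of Rgs2 was at 2.74 on NPRA+/+ replicate 4, with the other 4 arrays between 1.94 and 2.11. The Rgs7 probe was at -3.38 on NPRA+/+ replicate 1, with the others between -4.20 and -4.09. Without that array the fitted difference was 0.31 for the Rgs2 probe and 0.60 for the Rgs7 probe, and neither passed in limma.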

How the results depend on the processing

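Of 356 values of member probes under 21 alternatives, 325 kept their sign and their side of the threshold. The count over all probes, 123 as reported, was 0 with quantile normalization, scaling to the median, normexp, the deposited table, an intensity trend, slide as a random block and scan day as a block. The replicate block by repetition number also gave 0, and by source name number 22. It was 193 with no filter on dim probes, 3 for probes well above background on all 8 arrays, 5979 within scan day 1 and 4134 without replicate 1 of both genotypes, and from 0 to 4088 leaving out 1 array. The replicate block changed no call of a member probe. Member probes called were 2 within scan day 1, 1 without replicate 1 of both genotypes and from 0 to 1 leaving out 1 array.

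Several signs turned, and the cause was not tested. With scaling to the median these were Rgs2 probe 1 (-0.13), Rgs3 probe 2 (-0.19), Rgs5 (-0.018), Rgs6 probe 1 (-0.064) and Rgs12 probes 1 and 2 (-0.15 and -0.13). Rgs12 probes 2 and 3 turned with quantile normalization (-0.19 and -0.22) and the deposited table (-0.18 and -0.21). With normexp Rgs2 probe 2 was at 0.074 and Rgs3 probe 3 at 0.003. Scan day as a block and scan day 1 alone gave 0.086 for Rgs3 probe 3 and 0.035 for Rgs10. The replicate block gave 0.044 for Rgs3 probe 3 by source name number and 0.051 for Rgs10 by repetition number. Without replicate 1 of both genotypes Rgs2 probe 1 was at -0.026 and Rgs10 at 0.021. Leaving out 1 array, Rgs3 probe 3 ran from -0.26 to 0.19 and Rgs10 from -0.08 to 0.095.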
